A study of Boechera gunnisoniana with 7 samples.

Results

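The core cell cycle genes described here are cyclins, cyclin-dependent kinases (CDKs) and the proteins that switch these complexes on or off. They were picked by *Arabidopsis* locus from a list of 51 genes, which covers the A-, B- and D-type CDKs and CDKF, the A-, B-, D- and H-type cyclins, the CKS proteins, the KRP inhibitors, the WEE1 kinase and the CCS52 activators. Of the 51 genes, 45 had values among the 21428 genes of the arrays. Both other CDKB loci (AT3G54180 and AT2G38620), *CYCB1;2*, *CYCB2;3*, the D-type cyclin AT5G02110 and *KRP6* had none in the table used here. A gene symbol is given where the lists of the study pair it with the locus, which holds for 21 of the 45 genes, and the other 24 are called by class and locus.

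The arrays hold amplified RNA of untreated *Boechera gunnisoniana*, a triploid relative of *Arabidopsis* that forms seeds by apomixis, that is without meiosis and without fertilization of the egg cell. Pools of cells were collected by laser-assisted microdissection (LAM), with 1 array for the egg cell, 1 for the central cell and 1 for the synergid cells of the mature gametophyte, 2 arrays for the apomictic initial cell (AIC), which founds the gametophyte, and 2 arrays for the sporophytic nucellus tissue around the AIC. Per the study, AIC samples can hold a little of the surrounding nucellus, and the gametophyte samples some of their neighbouring cells. Emasculated flowers gave the 3 gametophyte samples, and younger buds gave the AIC and nucellus samples, so cell type and stage cannot be told apart between these sets. The ATH1 arrays carry probes designed on *Arabidopsis* transcripts, and a low value can also come from poor binding, so that values are compared here between arrays for the same gene and never between genes.

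A CDK works only when a cyclin is bound to it. In plants, D-type cyclins act with CDKA at the entry into S phase, A-type cyclins act from S phase towards mitosis, and B-type cyclins together with the plant-specific CDKB kinases act at mitosis. CDKD with cyclin H, and CDKF upstream of it, form the kinases that activate CDKs by phosphorylation. CKS proteins dock CDKs to their substrates, KRP proteins bind and inhibit cyclin-CDK complexes, WEE1 phosphorylates CDKs at an inhibitory site, and CCS52 proteins direct the anaphase-promoting complex to destroy mitotic cyclins. In ovules these genes bear on the apomictic cycle because the AIC leaves out the reductional part of meiosis. The nucellus cells divide by mitosis, and the cells of the mature gametophyte have stopped dividing.

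Expression values are on the log2 scale as the authors deposited them, where a difference of 1 is a 2-fold difference. A gene was counted as present on an array when its value lay above the level that separates the P calls of the study from its other calls. This presence cutoff was 4.94 for the egg cell, 5.59 for the central cell, 5.29 for the synergid cells, 4.97 and 5.01 for the AIC, and 4.96 and 5.07 for the nucellus. The spread over all genes was also narrower on the central cell and synergid cell arrays, with SDs of 1.11 and 1.24 against 1.38 to 1.44 on the other 5. The part of these array differences in the results for the central cell and the synergid cells was not tested. Marker genes of the sampled cell types gave a mixed picture. Of the 3 measured synergid genes, AT4G18770 was above the cutoff on the synergid cell array and on no other (6.61), AT1G47470 was highest there but below the cutoff (4.84), and AT2G20070 was below the cutoff on all arrays and highest in the central cell (4.48). Of the 4 central cell genes, AT5G48670 was above the cutoff on 5 arrays and the other 3 on none. AT5G48670 measured 6.10 in the egg cell, 6.60 in the central cell and 6.14 in the synergid cells. Highest in the central cell were AT5G48670, AT2G24840 (4.53) and AT4G25530 (4.85), whereas AT2G35670 was highest in the egg cell (4.16). Both measured egg cell genes were below the cutoff on all 7 arrays, including the egg cell array. The 4 ovule and nucellus genes were below it on both nucellus arrays, and AT4G09960 of this list passed it in the egg cell alone (5.86). In the AIC, 2 of the 4 meiocyte genes were above the cutoff on array 1 and 0 on array 2. In pooled tissue, fewer cells of a type and less RNA per cell cannot be told apart.

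**Figure D1:**
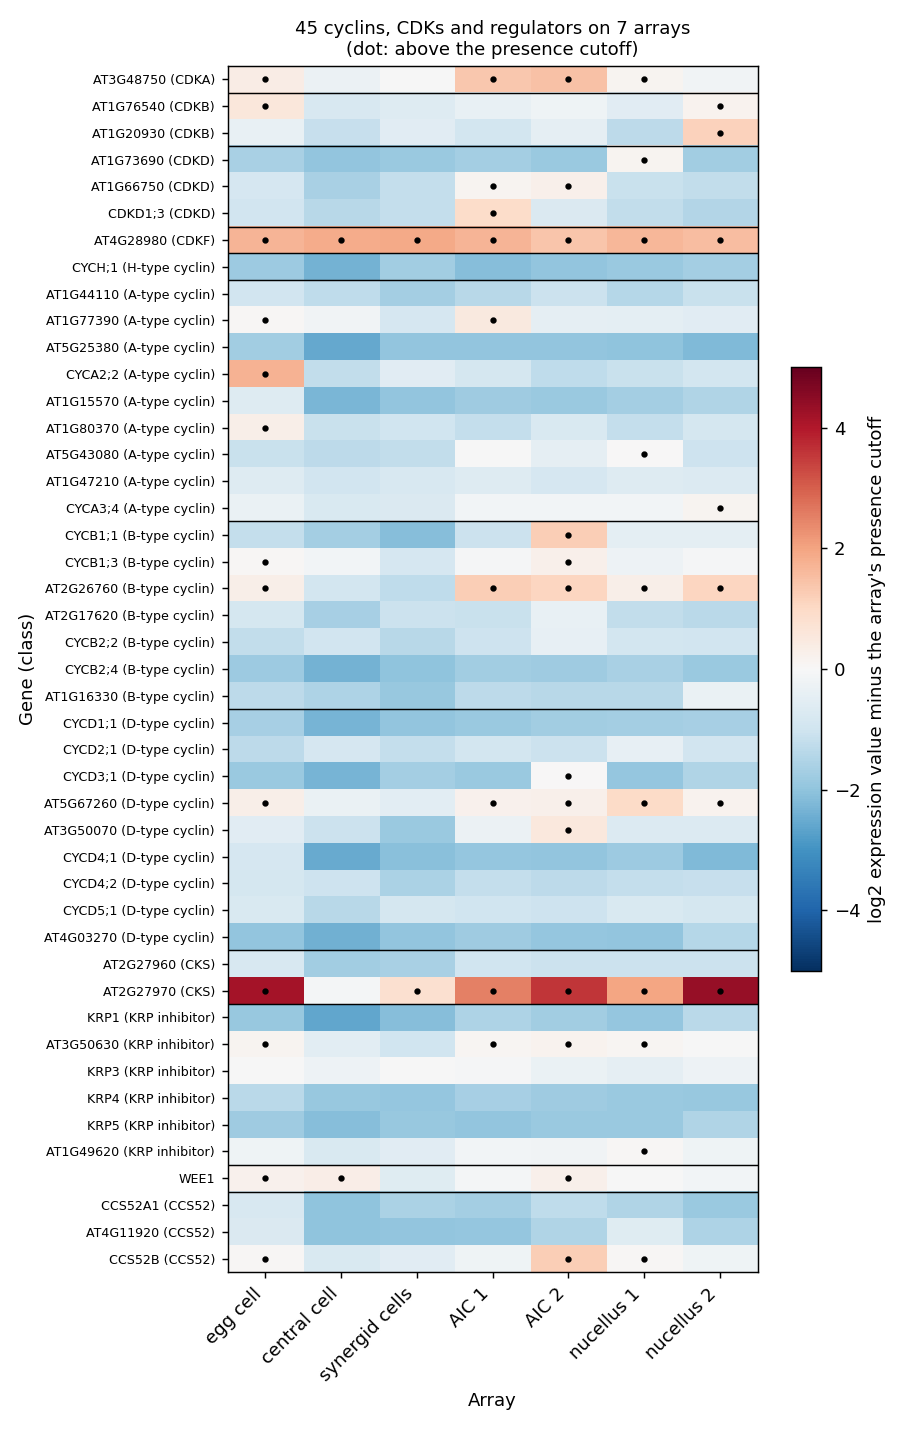
Each row is 1 of the 45 genes and each column 1 of the 7 arrays, the colour gives the log2 value minus the presence cutoff of that array, dots mark values above the cutoff, and lines separate the classes. The egg cell and AIC 2 columns hold 13 dots each, the central and synergid cell columns 2 each, and AT4G28980 (CDKF) is the row with dots in all 7 columns.

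Of the 45 genes, 23 passed the presence cutoff on 1 or more of the 7 arrays (39.9% of all genes did), and 22 on none. They were spread thinly over the arrays. A total of 11 were above the cutoff on exactly 1 array, a breadth that 9.04% of all genes had, and 1 was above it on all 7, as were 9.55% of all genes. The gene present on all arrays was the CDKF kinase AT4G28980.

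The egg cell array had 13 of the 45 genes above the cutoff, beside 27.2% of all genes. Far fewer were present in the other gametophyte cells, with 2 in the central cell (13.9% of all genes) and 2 in the synergid cells (19.4%). The AIC arrays had 9 (26.5%) and 13 (26.1%), and the nucellus arrays 10 (26.6%) and 7 (24.4%). In percent of the 45 genes this was 28.9% in the egg cell, 4.44% in the central cell, 4.44% in the synergid cells, 20.0% and 28.9% in the AIC, and 22.2% and 15.6% in the nucellus. Shares of the egg cell and of AIC 2 were thus slightly above those of all genes, and the other 5 below. With the limit of the P call loosened from 0.02 to 0.05 the central cell count was 8 (17.8% of the 45 genes, against 22.6% of all genes) and the synergid cell count 4 (8.89% against 27.3%).

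**Figure D2:**
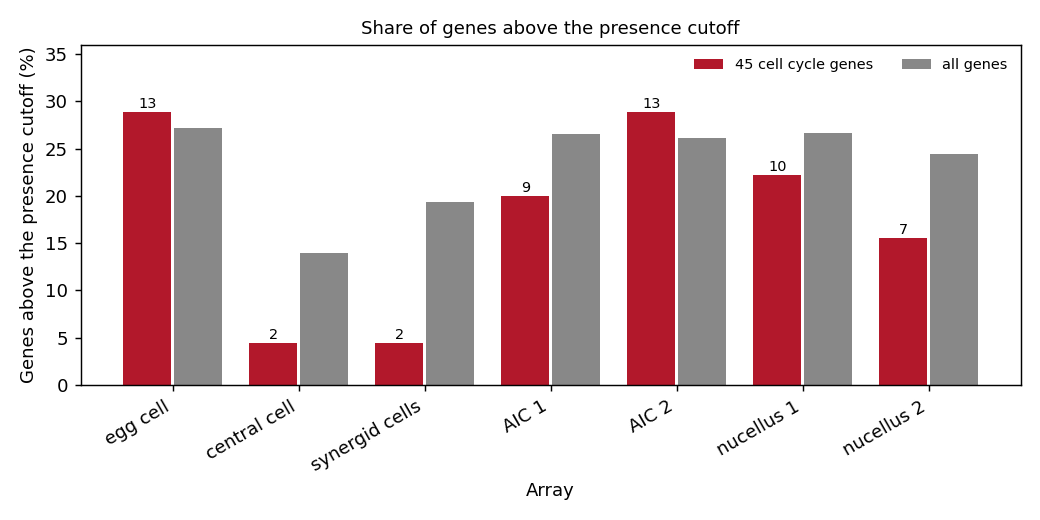
Bars give the percent of genes above the presence cutoff on each array, red for the 45 cell cycle genes with their number on top and grey for all 21428 genes. The red bars of the central and synergid cells (4.44% each) are the shortest and lie below their grey bars (13.9% and 19.4%).

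At least 1 AIC array had 15 of the 45 genes above the cutoff (30.9% of all genes) and both AIC arrays had 7 (21.7%). These 7 were the CDKA AT3G48750, the CDKD AT1G66750, the CDKF AT4G28980, the B-type cyclin AT2G26760, the D-type cyclin AT5G67260, the CKS gene AT2G27970 and the KRP inhibitor AT3G50630. For the nucellus the numbers were 13 on at least 1 array (30.8%) and 4 on both (20.2%). The 4 shared genes were CDKF, AT2G26760, AT5G67260 and AT2G27970. A-type cyclins were absent from both sets of genes that a pair of arrays shared.

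Among the kinases that drive the cycle, the CDKA AT3G48750, the partner of D- and A-type cyclins, had its highest values in the AIC. It measured 5.32 in the egg cell, 5.29 in the central cell, 5.28 in the synergid cells, 6.30 and 6.47 in the AIC, and 5.12 and 4.90 in the nucellus. Both AIC arrays lay above all 5 others, with no overlap, while the gametophyte cells and the nucellus lay within 0.5 of each other. Values in the egg cell, the AIC and nucellus 1 passed the presence cutoff, and the synergid cell value lay just under it. The difference between AIC and nucellus was 1.38 ± 0.145 (SE, 2 arrays each), with a 95% confidence interval of 0.93 to 1.82 and an adjusted p of 0.938 in limma. Against the AIC, the egg cell differed by -1.07, the central cell by -1.10 and the synergid cells by -1.10, with adjusted p values of 0.309, 0.161 and 0.230 in limma.

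Both measured CDKB genes, which encode mitotic kinases, did not reach the cutoff in the AIC. AT1G76540 measured 5.51 in the egg cell, 4.79 in the central cell, 4.64 in the synergid cells, 4.60 and 4.79 in the AIC, and 4.38 and 5.24 in the nucellus. It was present in the egg cell and on nucellus 2. AT1G20930 measured 4.56, 4.45 and 4.71 in the egg, central and synergid cells, 4.04 and 4.55 in the AIC, and 3.64 and 6.23 in the nucellus, and was present on nucellus 2 alone. The nucellus pair was 2.59 apart for this gene.

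The 3 CDKD genes, which encode CDK-activating kinases, differed in the arrays on which they were present. The CDKD AT1G66750 measured 4.09 in the egg cell, 3.97 in the central cell, 4.09 in the synergid cells, 5.09 and 5.25 in the AIC, and 3.84 and 3.83 in the nucellus. It passed the cutoff on both arrays of the AIC and on no other, and the lower AIC value was higher than every value outside the AIC. Between AIC and nucellus the difference was 1.33 ± 0.117 (SE, 2 arrays each), with a 95% confidence interval of 0.98 to 1.69 and an adjusted p of 0.938 in limma. The egg, central and synergid cells differed from the AIC by -1.08, -1.20 and -1.08, with adjusted p values of 0.248, 0.153 and 0.222 in limma.

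*CDKD1;3* (AT1G18040) was present on 1 AIC array. Its values were 3.99 in the egg cell, 4.20 in the central cell, 4.10 in the synergid cells, 5.90 and 4.27 in the AIC, and 3.73 and 3.60 in the nucellus. Both AIC values were above the other 5, but AIC 2 differed from AIC 1 by -1.63, and the confidence interval of the difference from the nucellus reached from -0.54 to 3.38. The third CDKD gene, AT1G73690, was present on nucellus 1 with 5.11, against 3.32 on nucellus 2, and lay between 3.15 and 3.63 on the other 5 arrays. *CYCH;1*, the cyclin of these kinases, was below the cutoff on all 7 arrays, between 2.85 and 3.56.

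CDKF was the only gene of the set present in the central cell, the synergid cells and all other samples. AT4G28980 measured 6.65 in the egg cell, 7.45 in the central cell, 7.18 in the synergid cells, 6.68 and 6.38 in the AIC, and 6.63 and 6.61 in the nucellus. The central cell and the synergid cells were the highest, and the other 5 arrays lay within 0.5 of each other. Against the AIC the central cell was higher by 0.92 ± 0.191 and the synergid cells by 0.65 ± 0.191 (SE, 1 array against 2), with adjusted p values of 0.181 and 0.306 in limma. After quantile normalization, which gives all arrays the same spread, the central cell value was 8.64 and the AIC values 6.49 and 6.34.

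**Figure D3:**
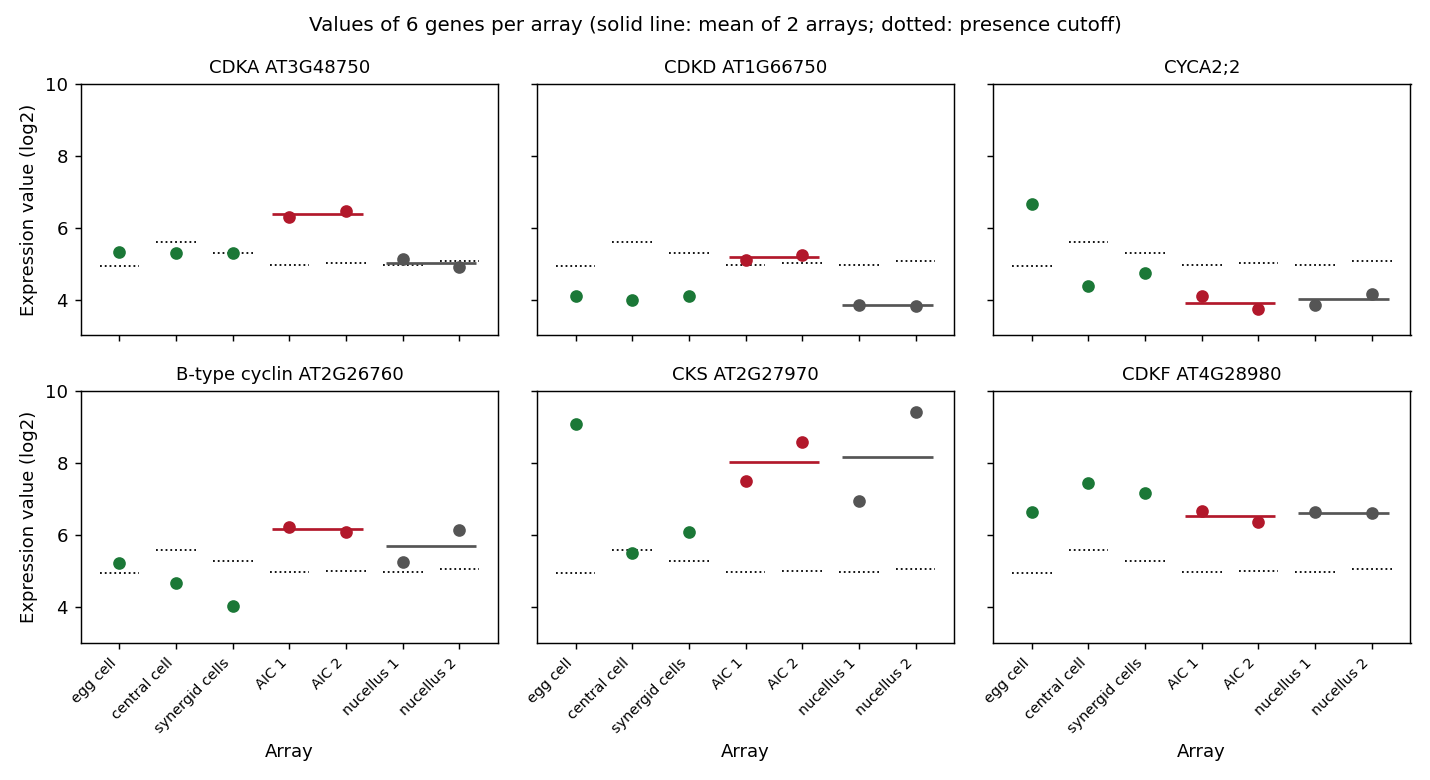
Points give the log2 value of each array for 6 of the genes (green for the egg, central and synergid cells, red for the AIC, grey for the nucellus), solid lines the mean of a pair of arrays and dotted lines the presence cutoff of each array. AT3G48750 (CDKA) and AT1G66750 (CDKD) have both AIC points above all others, *CYCA2;2* has its egg cell point at 6.66 and all others below 5, and the CKS gene AT2G27970 is lowest in the central cell (5.50).

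Of the 9 measured A-type cyclins, the egg cell array had 3 above the cutoff, the central and synergid cell arrays 0, the AIC arrays 1 and 0, and the nucellus arrays 1 and 1. *CYCA2;2* (AT5G11300) measured 6.66 in the egg cell, 4.37 in the central cell, 4.73 in the synergid cells, 4.10 and 3.73 in the AIC, and 3.85 and 4.16 in the nucellus. Its egg cell value stood alone above the cutoff and above every other array. The difference between the egg cell and the AIC was 2.75 ± 0.262 (SE, 1 array against 2), with a 95% confidence interval of 1.95 to 3.54 and an adjusted p of 0.183 in limma. AT1G80370 was also highest in the egg cell and present there alone, with 5.23 in the egg cell, 4.48 in the central cell, 4.31 in the synergid cells, 3.78 and 4.26 in the AIC, and 3.76 and 4.20 in the nucellus. AT1G15570 had its highest value in the egg cell too, 4.29 against 3.17 to 3.56 on the other 6 arrays, but stayed below the cutoff everywhere.

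The remaining A-type cyclins had no common pattern. AT1G77390 measured 5.01 in the egg cell, 5.42 in the central cell, 4.44 in the synergid cells, 5.48 and 4.55 in the AIC, and 4.48 and 4.51 in the nucellus. It was present in the egg cell and on AIC 1, and both AIC values were above both nucellus values, AIC 2 by a few hundredths. AT5G43080 measured 3.81, 4.29 and 4.06 in the egg, central and synergid cells, 4.93 and 4.54 in the AIC, and 5.00 and 4.02 in the nucellus, and was present on nucellus 1. *CYCA3;4* was nearly level, with 4.60, 4.83 and 4.57 in the gametophyte cells, 4.83 and 4.89 in the AIC, and 4.83 and 5.22 in the nucellus, and passed the cutoff on nucellus 2. The 4 A-type cyclins present on no array had values of 2.87 to 4.62.

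Of the 7 measured B-type cyclins, which mark entry into mitosis, 3 were present on AIC 2, 2 in the egg cell, and 1 each on AIC 1, nucellus 1 and nucellus 2, but 0 in the central and synergid cells. AT2G26760 measured 5.23 in the egg cell, 4.68 in the central cell, 4.02 in the synergid cells, 6.22 and 6.10 in the AIC, and 5.26 and 6.15 in the nucellus. Every gametophyte value was lower than every AIC and nucellus value, although the egg cell and nucellus 1 were only a few hundredths apart. The central cell differed from the AIC by -1.48 ± 0.445 and the synergid cells by -2.14 ± 0.445 (SE, 1 array against 2), with adjusted p values of 0.249 and 0.254 in limma.

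*CYCB1;1* (AT4G37490), a cyclin of mitotic cells, measured 3.73 in the egg cell, 3.90 in the central cell, 3.17 in the synergid cells, 3.89 and 6.24 in the AIC, and 4.46 and 4.60 in the nucellus. Only AIC 2 was above the cutoff, and AIC 1 lay below both nucellus arrays. *CYCB1;3* measured 4.98 in the egg cell, 5.43 in the central cell, 4.47 in the synergid cells, 4.92 and 5.26 in the AIC, and 4.70 and 5.00 in the nucellus. It was present in the egg cell and on AIC 2, while its highest value, in the central cell, was below the higher cutoff of that array. The 4 other B-type cyclins were below the cutoff throughout, between 3.11 and 4.74.

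D-type cyclins, which link growth signals to S phase, were present in small numbers on all arrays but those of the central and synergid cells, with 3 of the 9 measured on AIC 2 and 1 each on the egg cell, AIC 1, nucellus 1 and nucellus 2 arrays. AT5G67260 measured 5.24 in the egg cell, 5.24 in the central cell, 4.78 in the synergid cells, 5.20 and 5.24 in the AIC, and 5.91 and 5.24 in the nucellus. The same value stood on 4 of these arrays, those of the egg cell, the central cell, AIC 2 and nucellus 2, and nucellus 1 was the highest. This shared value passed the cutoff on all of them but the central cell array, where the cutoff was higher (5.59). *CYCD3;1* (AT4G34160) measured 3.08, 3.27 and 3.58 in the gametophyte cells, 3.12 and 5.05 in the AIC, and 3.02 and 3.56 in the nucellus, so that AIC 2 was alone above the cutoff and 1.92 above AIC 1. AT3G50070 measured 4.37 in the egg cell, 4.50 in the central cell, 3.42 in the synergid cells, 4.66 and 5.55 in the AIC, and 4.28 and 4.37 in the nucellus. Both AIC values of this gene were the highest of the 7, and AIC 2 was present.

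*CYCD4;1* (AT5G65420) was below the cutoff on all arrays but highest in the egg cell, at 4.09 against 2.84 to 3.20 elsewhere, and differed from the AIC by 1.03 ± 0.184 (SE, 1 array against 2, adjusted p = 0.321 in limma). In all, the 6 D-type cyclins present on no array had values of 2.84 to 4.76.

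The CKS gene AT2G27970, a docking subunit of CDKs, varied more than any other gene of the set. It measured 9.09 in the egg cell, 5.50 in the central cell, 6.08 in the synergid cells, 7.50 and 8.59 in the AIC, and 6.95 and 9.42 in the nucellus. The central and synergid cells were lowest, and the egg cell value lay between both nucellus values. The replicate pairs were 1.09 apart in the AIC and 2.47 apart in the nucellus, and the limma interval of the difference between central cell and AIC, -2.54, reached from -6.49 to 1.40. The other CKS gene, AT2G27960, was below the cutoff on all arrays, between 3.68 and 4.12. Whether probes of either CKS gene also bind transcripts of the other was not tested.

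KRP inhibitors were near or below the cutoff. AT3G50630 measured 5.06 in the egg cell, 5.06 in the central cell, 4.28 in the synergid cells, 5.06 and 5.18 in the AIC, and 5.06 and 5.06 in the nucellus. It was present in the egg cell, on both AIC arrays and on nucellus 1, and the synergid cells stood apart, at -0.84 ± 0.134 from the AIC (SE, 1 array against 2, adjusted p = 0.230 in limma). The egg cell, central cell, AIC 1 and both nucellus arrays held the same value. It lay just under the cutoff of nucellus 2 and below the higher cutoff of the central cell. AT1G49620 measured 4.74, 4.83 and 4.74 in the gametophyte cells, 4.83 and 4.83 in the AIC, and 5.00 and 4.88 in the nucellus, and passed the cutoff on nucellus 1 by a few hundredths. *KRP3* had 4.92 in the egg cell, 5.35 in the central cell, 5.28 in the synergid cells, 4.92 and 4.69 in the AIC, and 4.52 and 4.82 in the nucellus. It was highest in the central and synergid cells, where the cutoffs were also highest, and passed the cutoff on no array. It missed the cutoff narrowly in the egg cell (-0.019), the synergid cells (-0.017) and on AIC 1 (-0.055). With the limit of the P call loosened to 0.05, *KRP3* was present on 6 arrays. *KRP1*, *KRP4* and *KRP5* lay between 2.99 and 3.73.

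The inhibitory kinase *WEE1* had its highest value in the central cell, where it was the only gene besides CDKF above the cutoff. It measured 5.16 in the egg cell, 5.94 in the central cell, 4.70 in the synergid cells, 4.88 and 5.28 in the AIC, and 4.95 and 4.95 in the nucellus. The egg cell and AIC 2 were also present, and the central cell exceeded the AIC by 0.86 ± 0.227 (SE, 1 array against 2, adjusted p = 0.217 in limma). *CCS52B*, an activator of the anaphase-promoting complex, measured 4.98, 4.81 and 4.73 in the egg, central and synergid cells, 4.74 and 6.23 in the AIC, and 5.01 and 4.84 in the nucellus. AIC 2 stood out by more than 1, and the egg cell and nucellus 1 were just above their cutoffs. *CCS52A1* and AT4G11920 were below the cutoff throughout, between 3.03 and 4.36.

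When the AIC was set against the nucellus, 2 of the 45 genes, CDKA AT3G48750 and CDKD AT1G66750, had both AIC values at least 1 above both nucellus values (0.369% of all genes), and 0 had them at least 1 below (0.341%). Without a minimum size, both AIC values were above both nucellus values for 8 genes (12.7% of all genes) and below for 6 (14.3%). With limma, 0 of the 45 genes and 0 of all 21428 genes passed an adjusted p of 0.05, and at an unadjusted p of 0.05 the same 2 genes were higher (2.08% of all genes) and 0 were lower (1.75%). The AIC mean was the higher for 23 of the 45 genes (48.8% of all genes), and the median difference over the 45 genes was 0.0087, against -0.0050 over all genes. The fit had 2 residual degrees of freedom. Without AIC 1 the unadjusted counts were 9 higher and 0 lower (6.1% and 3.49% of all genes), and without AIC 2 they were 4 and 1 (3.43% and 1.61%). Without nucellus 1 they were 2 and 2 (3.3% and 5.37%), and without nucellus 2 they were 3 and 3 (2.28% and 4.11%). Nothing in the labels says that the pools of a pair came from separate plants, and the p values measure only the spread between these samples.

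The comparisons of the egg, central and synergid cells with the AIC share the AIC arrays, and the spread of a cell type with 1 array was taken from the AIC and nucellus pairs. In the egg cell, 3 genes were at least 1 above both AIC arrays (3.88% of all genes), namely the A-type cyclins AT5G11300 (*CYCA2;2*) and AT1G15570 and the D-type cyclin AT5G65420, and 1 was at least 1 below (1.98%), the CDKD AT1G66750. In the central cell 0 genes were that far above (2.77%) and 4 below (5.79%), the CDKA, AT1G66750, the B-type cyclin AT2G26760 and the CKS gene AT2G27970. The synergid cells had 0 above (2.84%) and 5 below (3.56%), the same 4 genes and the D-type cyclin AT3G50070. Set against AIC 2 alone the counts were 3 above and 6 below in the egg cell (5.73% and 4.82% of all genes), 1 and 8 in the central cell (4.98% and 8.89%), and 1 and 8 in the synergid cells (5.03% and 7.01%). Against AIC 1 alone they were 6 and 3 in the egg cell (6.15% and 5.81%), 1 and 5 in the central cell (4.55% and 10.2%), and 0 and 7 in the synergid cells (4.65% and 8.06%).

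Adjusted p values of limma were above 0.05 for all genes in these comparisons too. At an unadjusted p of 0.05 limma gave 4 genes higher and 2 lower in the egg cell (6.52% and 3.5% of all genes), 5 higher and 3 lower in the central cell (12.8% and 5.26%), and 3 higher and 5 lower in the synergid cells (10.7% and 4.3%). In the central cell the 5 higher genes were CDKF (0.92), *WEE1* (0.86), *CYCD4;2* (0.81), *CYCD2;1* (0.77) and *KRP4* (0.40). In the synergid cells they were AT5G11300 (0.81), CDKF (0.65) and *CYCD5;1* (0.45). Of these genes, *CYCD4;2*, *CYCD2;1*, *KRP4* and *CYCD5;1* were below the presence cutoff on every array. A filter on genes present on fewer than 2 arrays leaves them out. After quantile normalization their differences were 0.68, 0.68 and 0.24 in the central cell, and 0.39 for *CYCD5;1* in the synergid cells. The egg cell was above the AIC mean for 25 of the 45 genes (47.9% of all genes), the central cell for 28 (58.4%) and the synergid cells for 20 (53.7%). Median differences from the AIC over the 45 genes were 0.044 in the egg cell, 0.079 in the central cell and -0.054 in the synergid cells, against -0.014, 0.072 and 0.027 over all genes.

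All 3 gametophyte values lay above all 4 AIC and nucellus values for 3 genes (7% of all genes), AT5G11300 (*CYCA2;2*), AT1G80370 and *KRP4*. They lay below them for 1 (3.97%), the B-type cyclin AT2G26760. *KRP4* was below the cutoff on all arrays. After quantile normalization the synergid cell value of *KRP4* (3.30) lay under AIC 1 (3.34). That of AT1G80370 (4.27) then lay under AIC 2 (4.28). For AT5G11300 the mean of the gametophyte cells exceeded that of the AIC and nucellus by 1.30 ± 0.163 (SE, 3 arrays against 4, adjusted p = 0.145 in limma), most of it from the egg cell. For AT2G26760 the difference was -1.29 ± 0.278 (SE, 3 arrays against 4, adjusted p = 0.177 in limma). Both SEs rest on the spread within the AIC and nucellus pairs. They hold none of the spread among the 3 gametophyte cell types, which are not replicates of each other. At an unadjusted p of 0.05 limma gave 7 genes higher (13.9%) and 4 lower (5.9%) in the gametophyte cells, and 0 of all genes passed after adjustment. The gametophyte mean was the higher for 22 of the 45 genes (56.9% of all genes). By class, 7 of the 9 A-type cyclins had a higher mean in the gametophyte cells. Of the 7 B-type cyclins, 6 had a lower mean there. Median differences were 0.21 and -0.09, against 0.050 over all genes. *CYCB1;3*, counted as lower, differed by -0.0091, and by 0.040 after quantile normalization. In each of these 2 classes, 4 of the cyclins were below the cutoff on all arrays. All 3 CDKD genes and both CKS genes also had a lower mean. These are counts of direction with no test of their own. With AIC 1 left out, 5 genes were above and 2 below all remaining AIC and nucellus values (8.4% and 5.02% of all genes), and with AIC 2 left out 6 and 1 (9.72% and 6.22%). With nucellus 1 left out the counts were 3 and 2 (8.72% and 4.86%), and with nucellus 2 left out 5 and 2 (9.65% and 6.04%).

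Genes whose values in a group of arrays stood apart from all other arrays by more than 0.5 were counted after the values had been seen. Both AIC arrays were above the rest for 2 genes (0.406% of all genes), the CDKA and AT1G66750, and the egg cell for 4 (4.47%), the A-type cyclins AT5G11300, AT1G80370 and AT1G15570 and the D-type cyclin AT5G65420, while 0 genes were below the rest in the egg cell (1.39%). The synergid cells had the lowest of the 7 values for 13 of the 45 genes (13.8% of all genes), 4 of which, AT2G26760, AT3G50070, AT3G50630 and AT4G37490, were lower by more than 0.5 (1.9%). The central cell had the highest value for 10 (24.7%), with *WEE1* the gene more than 0.5 above the rest (5.42%).

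The AIC arrays were more than 1 apart for 5 of the 45 genes (11.1%, against 7.83% of all genes). As AIC 2 minus AIC 1, the differences were 2.35 for *CYCB1;1*, 1.92 for the D-type cyclin AT4G34160, 1.49 for *CCS52B*, 1.09 for the CKS gene AT2G27970 and -1.63 for the CDKD AT1G18040. Apart from AT2G27970, the presence of these genes in the AIC thus rests on 1 array each. The meiocyte genes above the cutoff on AIC 1 and not on AIC 2 were higher on AIC 1, as was AT1G18040, whereas the other split genes were higher on AIC 2. How these differences relate was not tested. The nucellus arrays were more than 1 apart for 4 genes (8.89%, against 11.3% of all genes), which were AT1G20930, AT2G27970, AT1G73690 and the B-type cyclin AT1G16330. Between arrays of a pair the median size of the difference was 0.171 in the AIC and 0.272 in the nucellus, against 0.219 and 0.206 over all genes.

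**Figure D4:**
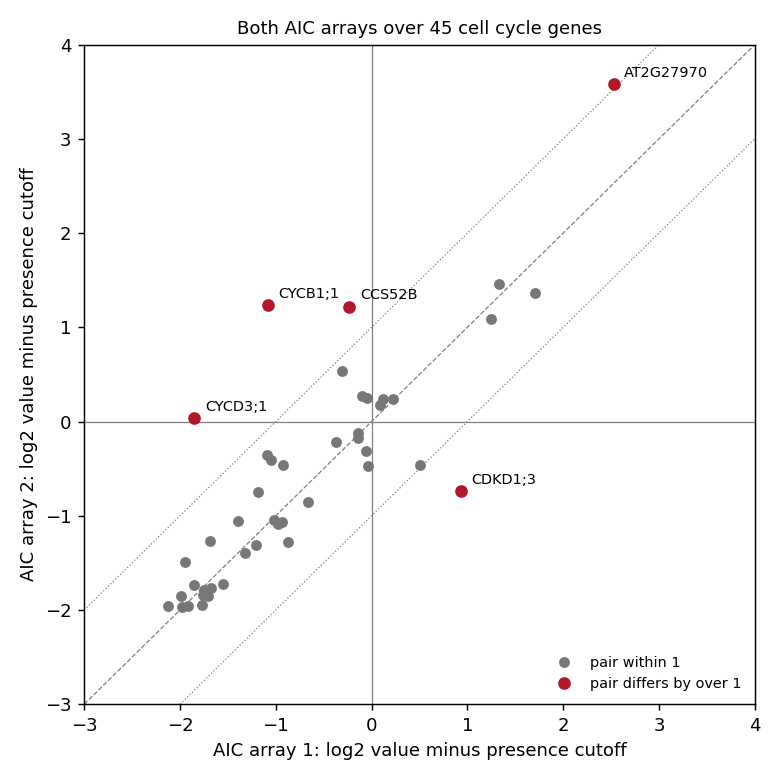
Each point is 1 of the 45 genes, with its log2 value minus the presence cutoff on AIC 1 on the x axis and on AIC 2 on the y axis, the dashed line marks equal values, dotted lines a difference of 1, and red points the genes whose log2 values were more than 1 apart. The 5 red points are the B-type cyclin AT4G37490, the D-type cyclin AT4G34160, *CCS52B* and the CKS gene AT2G27970 above the dotted band and the CDKD AT1G18040 below it.

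Exactly equal values on different arrays occurred for 18 of the 45 genes (40%, against 38.2% of all genes), and 7 genes had the same value on 3 or more arrays. AT3G50630 had the same value on 5 arrays and AT5G67260 on 4.

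Beyond the 45 genes, 17 of 19 other genes of the pathway (E2F and DP factors, the retinoblastoma homologue, a SIAMESE inhibitor, other CDKs and replication factors) had values, and 9 of them were present on 1 or more arrays (39.9% of all genes were). On at least 1 AIC array 5 were present (30.9% of all genes), *E2FC*, AT5G02470, AT3G12280, *PCNA1* and *PCNA2*. AT3G12280 was present on all 7 arrays, with its highest values on nucellus 1 (8.04) and in the synergid cells (7.77). *E2FC* was highest on nucellus 2 (7.72) and AT5G02470 on AIC 1 (5.53). *PCNA1* was highest on nucellus 1 and AIC 1 (5.35 on each). The S-phase transcription factor *E2FA*, below the cutoff in the AIC, was singled out after the values were seen. It measured 6.49 in the egg cell, 4.93 in the central cell and 4.12 in the synergid cells. In the AIC it had 4.47 and 4.47, and in the nucellus 4.70 and 4.15. Like *CYCA2;2* it was present in the egg cell alone, with a difference of 2.02 ± 0.289 from the AIC (SE, 1 array against 2, adjusted p = 0.267 in limma). *PCNA2*, a clamp of the replication fork, measured 8.43 in the egg cell, 4.53 in the central cell, 3.42 in the synergid cells, 7.77 and 8.75 in the AIC, and 7.36 and 2.98 in the nucellus. It was high in the egg cell, the AIC and nucellus 1 and low in the central cell, the synergid cells and nucellus 2. With limma, 0 of the 17 genes passed an adjusted p of 0.05 in any comparison. At an unadjusted p of 0.05, limma gave 2 higher and 0 lower in the egg cell (6.52% and 3.5% of all genes), 2 and 1 in the central cell (12.8% and 5.26%), and 0 and 0 in the synergid cells (10.7% and 4.3%), each against the AIC. It gave 3 higher and 0 lower in the gametophyte cells against the AIC and nucellus (13.9% and 5.9%), and 0 and 0 in the AIC against the nucellus (2.08% and 1.75%).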

How the data were processed

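The authors deposited log2 expression values, 1 per *Arabidopsis* gene and array, for 7 ATH1 arrays (21492 features, of which 64 are controls left out here). Per the methods, probes were grouped by gene with a brainarray annotation. The methods name RMA for the log2 array values behind the heatmaps of the study and otherwise refer to earlier work. Whether the deposited table holds these RMA values is not stated there. No normalization was added, and precision is limited by the number of arrays. The presence cutoff of each array was read off the first 1999 rows of the call table of the study, as the value that separates P calls at a *Bg*PANP p value of 0.02 from the others, with 0 features misplaced.

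Groups were compared by lmFit and eBayes of limma 3.58.1 in R 4.3.3, over all genes and 7 arrays with 1 mean per group and 2 residual degrees of freedom, with Benjamini-Hochberg adjustment over all genes at 0.05. The limma routine was tested on simulated data. Counts used Python 3.11.15, pandas 2.3.3, numpy 2.4.6 and scipy 1.17.1, and the plots matplotlib 3.10.9. Every gene of the set above the cutoff on at least 1 array was named with its values, the others by class, except where a difference singled them out after the values were seen. The genes, lists and tests were chosen with earlier results of these data known. Alternatives were other P call limits, a fixed share of genes per array, quantile normalization, a filter on genes present on fewer than 2 arrays, a trended prior, ranks, the AIC and nucellus arrays alone, a replicate block, and fits without each of the AIC and nucellus arrays in turn. Sequences of the genes were not used here.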

Additional observations from a re-analysis of the deposited data

How the results depend on the processing

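Direction was checked for a chosen part of the named differences, most of them at least 1 in size. These kept their direction under all 113 alternatives computed, which says little about smaller differences. Other named differences, such as those of the KRP inhibitors and *E2FA*, were not among those checked. Between AIC and nucellus, 0 of the 45 genes passed an adjusted p of 0.05 in limma under the alternatives that kept both arrays of each. Replicate numbers showed no shared shift (r = 0.0314 between the AIC and nucellus pair differences), which does not tell whether the samples were collected as pairs. With the replicate block 0 genes passed the adjusted threshold in limma and 2 were higher in the AIC at an unadjusted p of 0.05. Of 107 counts, 67 stayed within 1.5 times their value and 40 did not. The 67 include all counts of genes passing the adjusted threshold, which were 0 throughout and so say little about stability. At a P call limit of 0.01 the number of genes present was 8 in the egg cell, 5 in the nucellus and 15 on any array. At 0.05 it was 8 in the central cell and 4 in the synergid cells, and with a fixed share of genes per array 9 and 4. Requiring both arrays left 7 in the AIC and 4 in the nucellus. Leaving out an array gave 9 to 13 genes present in the AIC, 7 to 10 in the nucellus and 20 to 22 on any array.

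Genes at least 1 above both AIC arrays in the egg cell numbered 0 with the filter on low values and 1 at a difference of 2, and those below 0 with quantile normalization and 0 at a difference of 2. Quantile normalization gave 2 above in the central cell and 3 below in the synergid cells, and a difference of 2 left 0 below in the central cell and 1 in the synergid cells. With 1 AIC array left out the counts were 3 to 6 above and 3 to 6 below in the egg cell, 1 above and 5 to 8 below in the central cell, and 0 to 1 above and 7 to 8 below in the synergid cells. Gametophyte values all below the AIC and nucellus values were found for 5 genes after quantile normalization and for 5 by rank, and for 1 to 2 with an array left out. All above were 3 to 6 with an array left out. With margins added after seeing the data, both AIC arrays stood above the rest for 4 genes at a margin of 0 and 1 at a margin of 1, the egg cell for 7 and 1, and the synergid cells below the rest for 4 at a margin of 0.5. The filter drops genes present on fewer than 2 arrays, and the 3 genes above both AIC arrays in the egg cell were all of this kind. Counts of genes beyond all AIC, or all AIC and nucellus, arrays can only stay or rise with such an array left out. The causes of the other shifts were not tested.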
